A study of Bos taurus with 8 samples.

Results

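The genes described are those of extracellular matrix structure and turnover that the array carries by name: collagens, laminins, fibulins and fibrillin, fibronectin, thrombospondins and small proteoglycans, together with the matrix metalloproteinases (MMP), the ADAMTS proteases and their TIMP inhibitors. They were picked by symbol alone, although the theme was proposed with earlier results of these data known, which gave 97 genes of the 14952 gene names on the array, each with 1 probe. COL4A3BP was taken in by its name, but it encodes a ceramide transfer protein (current name CERT1) and is not a matrix gene. Of the 97 probes, 63 reached a signal well above background on 4 or more arrays of 8 and were tested. Another 20 were above background on 1 to 3 arrays and 14 on none.

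RNA was measured with 1-colour Agilent arrays in samples labelled as liver from 4 fistulated Holstein bull cattle, aged 5 to 6 months in a trial of 11. All of them were kept on roughage and then switched to grain-rich feed, the challenge for subacute ruminal acidosis (SARA), in which rumen pH falls and bacterial lipopolysaccharide (LPS) is set free. The 2 groups differ in the daily dose of an egg-yolk antibody against LPS given through the rumen fistula for 14 days, 0 g or 4 g per head. Animals 19, 20, 23 and 24 each gave 1 array per dose, taken 2 days after the challenge, so the 0 g group is the animals' own challenged state without antibody and no unchallenged sample was analysed here. The cattle received the doses in turn in a Latin square whose periods the labels do not give, so dose and period cannot be told apart within an animal.

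Extracellular matrix is the network of proteins around cells. In liver, fibrillar collagens lie mainly around portal tracts and vessels, and the space beside the sinusoids holds a thin matrix with type IV collagen, laminin and fibronectin. Hepatic stellate cells and portal fibroblasts make most of the fibrillar collagen, hepatocytes make plasma fibronectin, and MMP and ADAMTS proteases cut matrix proteins while TIMPs block them.

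Several libraries stood apart. Animal 19 at 4 g and animal 20 at 0 g gave dim arrays, with a 75th percentile of signal of 125.8 and 126.3 against 218 to 311.7 on the others. The 0 g array of animal 23 carried pancreatic acinar transcripts, with a mean level of 6.61 over 11 such markers against −4.75 to −3.25 elsewhere. The 0 g array of animal 19 stood apart in KRT6B and KRT6A, keratins of stratified epithelium. KRT6B stood at 0.55 there against −5.16 to −2.56 elsewhere, and KRT6A at −2.50 against −8.31 to −6.82. The next highest KRT6B value, −2.56, was that of the same animal at 4 g. Other such keratins did not set that array apart, with KRT5 at −4.20 against −5.45 to −4.06 elsewhere and KRT15 at −4.09 against −5.83 to −3.65. KRT4 and KRT14 were above background on no array. The animal labels were looked at through 20 probes whose 8 values fell into 2 well separated levels. Another 115 such probes were left out because they set the 2 dim arrays apart from the rest. Those probes put the 2 arrays of animal 19 on opposite sides, and those of animal 20 too. Agreement within animals 19 and 20 rests in part on that choice. Of the 20 probes kept, 19 put the arrays labelled as animal 19 on 1 side together and 20 those of animal 20. For animals 23 and 24 it was 8 each. The 0 g arrays of animals 23 and 24, however, shared a side for 17 and their 4 g arrays for 19. Within-animal differences of the arrays labelled 23 and 24 are therefore given apart from those of animals 19 and 20. Hepatocyte markers were well above background on all 8 arrays for 14 of 15 genes, and the markers of rumen epithelium, the tissue named in the extraction protocol, were divided. Of 14 such markers 7 were not above background on any array, TP63, KRT14 and SPRR3 among them, while KRT5, KRT6B, CNFN and SFN were above it on all 8.

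A level below is log2 of the spot signal minus the 75th percentile of its array, so a level of 0 is a probe as bright as that percentile. A difference is the level at 4 g minus the level at 0 g, and a mean level is given ± SD with n = 4 animals. Except in the sums and means over marker lists, levels of different probes were not set against each other, because probes differ in how well they bind. A gene's share of such a sum therefore depends on its probe as well as on its RNA.

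The first question was whether matrix transcripts differed with the antibody dose. No member passed the threshold: with limma, the animal as a block and adjustment over 10985 probes, 0 of the 63 members had an adjusted p under 0.05, as did 0 of all tested probes (0%), and every member's adjusted p was 1. At an unadjusted p under 0.05, 1 of 63 members was found, the type I collagen chain COL1A2, against 120 of all tested probes (1.09%). The members' values leaned towards lower levels at 4 g, since 43 of 63 differences were below 0 with a median of −0.17, beside 44.9% of all tested probes and a median of 0.03. With normexp background correction the split moved to 52 of 63 members, but 63.9% of all probes were then below 0 too. Lower levels in 4 of 4 animals were measured for 8 members (COL1A2, COL5A2, COL5A3, COL4A1, COL13A1, COL28A1, LUM and TIMP3) and for 228 of all tested probes (2.08%). That count pools the doubtful pairs of animals 23 and 24: lower in both animals 19 and 20 were 14 members (22.2%) beside 11.1% of all probes, and lower in both animals 23 and 24 were 23 members (36.5%) beside 18.8%. Higher levels in 4 of 4 animals were measured for 0 members and for 348 probes (3.17%). The 4 arrays at 0 g all stood above the 4 at 4 g for 0 members and for 28 probes (0.255%). The 95% confidence interval of the difference reached a median of 0.72 to either side of a member's value, and it excluded a 2-fold difference in either direction for 37 of the 63 (58.7%), beside 64.2% of all probes. With normexp, 25 of the 48 named members tested had a difference over 1.5 times smaller than here, and 4 a difference over 1.5 times larger. That setting adds an offset of 50 to the signal, which by itself makes log2 differences of dim probes smaller.

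**Figure D1:**
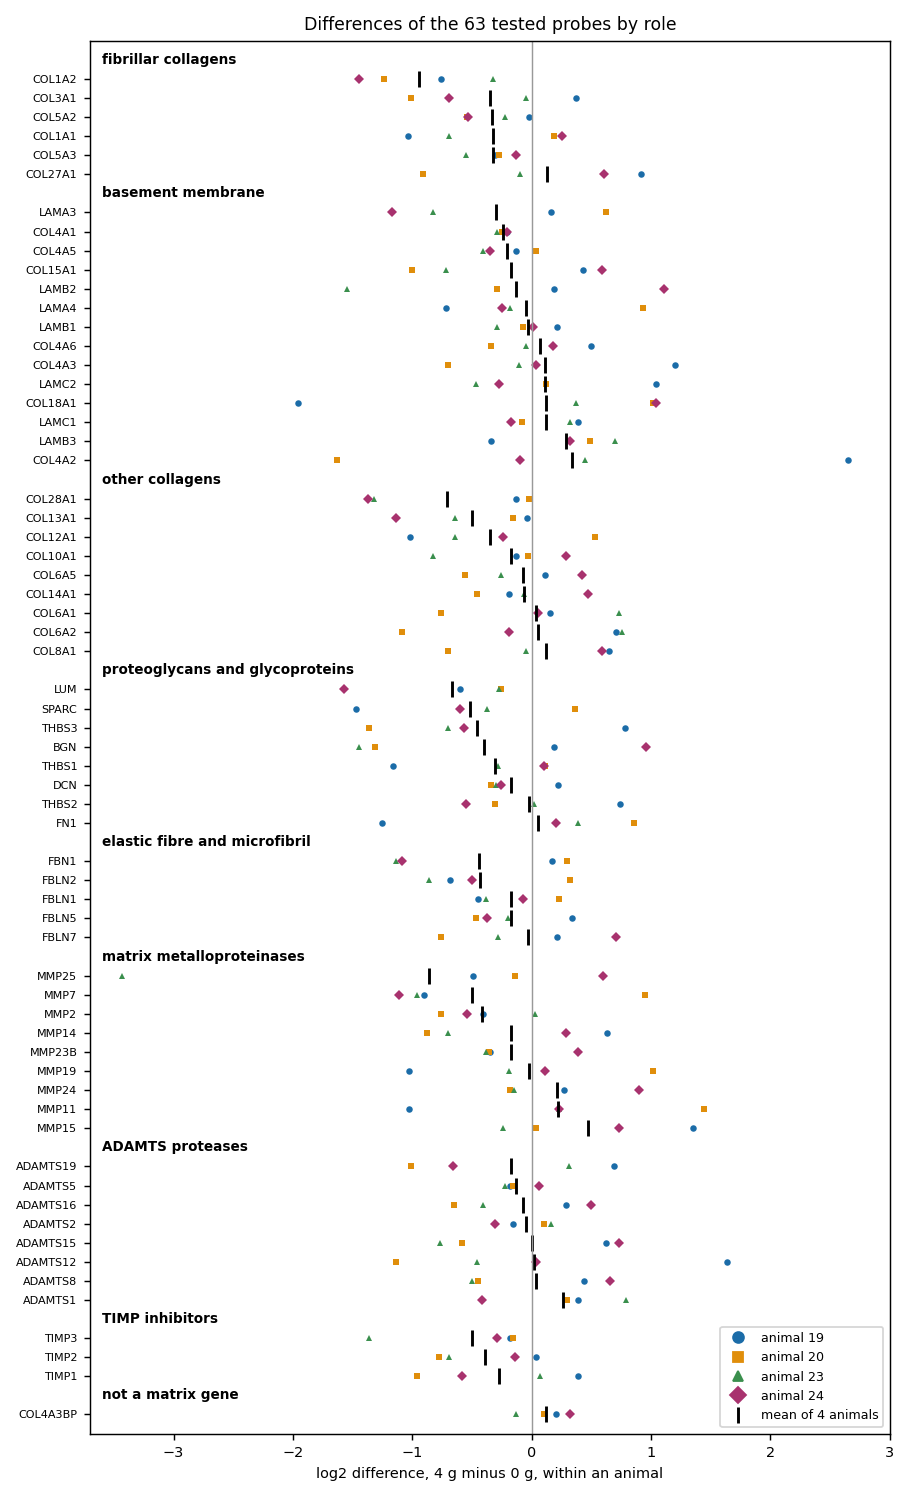
Differences of the 63 tested probes, 4 g minus 0 g in log2 units, grouped by the role of the protein, with a coloured point for each animal and a black bar for the mean of 4 animals. Proteoglycans and glycoproteins (7 of 8 means below 0), fibrillar collagens (5 of 6), elastic fibre genes (5 of 5) and TIMPs (3 of 3) lie mostly below 0, while basement membrane genes (7 of 14) and ADAMTS proteases (4 of 8) lie on both sides.

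The fibrillar collagens, which assemble into the load-bearing fibres of connective tissue, had 6 of 9 genes tested, with 5 differences below 0 and a median of −0.32. COL1A2 encodes the alpha 2 chain of type I collagen and COL1A1 its alpha 1 chain, which occur together in 1 triple helix. Their probes are shown here with that of lumican (LUM), a small leucine-rich proteoglycan that binds collagen fibrils, because COL1A2 and LUM had the smallest unadjusted p among the members and COL1A1 did not go with its partner. Capitals mark the triplet GGN, the glycine codons, where it recurs every 9 bases at least 4 times in a row, the spacing of a triple-helix coding region.
COL1A1: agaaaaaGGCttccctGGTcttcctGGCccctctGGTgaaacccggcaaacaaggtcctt
COL1A2: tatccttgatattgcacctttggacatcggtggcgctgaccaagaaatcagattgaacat
LUM: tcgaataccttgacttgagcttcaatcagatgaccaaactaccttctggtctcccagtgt

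These are the 60-base probe sequences as deposited, 5′ to 3′, with positions on the cattle assembly UMD 3.1 as the files give them. The COL1A1 probe spans chr19:37100714-37100917 on the plus strand, a stretch longer than the probe. The COL1A2 probe lies at chr4:11660663-11660722 on the plus strand, and the LUM probe at chr5:21041542-21041601 on the minus strand. Exon and untranslated region annotation of that build was not used here. The repeat was searched on the probe's own strand and occurs in 4 of 34 collagen probes (COL1A1, COL11A2, COL8A2 and COL25A1) and in 21 of all 15008 probes (0.14%). Probes with the repeat carry letters that many collagen genes share in spacing, and whether other collagen transcripts bind them was not tested.

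COL1A2 stood at 2.81, 3.42, 3.13 and 2.23 at 0 g in animals 19, 20, 23 and 24, and at 2.04, 2.18, 2.81 and 0.78 at 4 g. Each animal had its lower value at 4 g, and the ranges of the groups overlapped. The highest value was that of the dim 0 g array of animal 20 and the lowest that of the 4 g array of animal 24. The mean level was 2.90 ± 0.51 without antibody and 1.95 ± 0.85 with it, which differ by −0.94 (SE 0.27, 95% confidence interval −1.60 to −0.28), or 1.92-fold lower. By limma its unadjusted p was 0.0125 and its adjusted p 1. In animals 19 and 20 alone, each with a dim array, the difference was −1.00, and in animals 23 and 24 alone −0.88.

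COL1A1 went less clearly. Its levels were 0.62, 0.07, 0.72 and 0.01 at 0 g and −0.42, 0.26, 0.03 and 0.26 at 4 g in the same order of animals. Animals 19 and 23 had lower values at 4 g (by −1.04 and −0.69), and animals 20 and 24 slightly higher ones (0.19 and 0.25). The mean difference was −0.32 (SE 0.30, interval −1.06 to 0.42), so the interval includes both no difference and that of COL1A2.

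COL3A1, the chain of type III collagen that is found with type I in reticular fibres, stood at 2.91, 4.19, 3.35 and 3.02 at 0 g and at 3.29, 3.18, 3.31 and 2.33 at 4 g. The highest value was the dim 0 g array of animal 20 and the lowest the 4 g array of animal 24, and the difference of −0.35 (SE 0.30) was close to its error. The type V collagen chains, which take part in starting fibrils, had small differences of 1 sign in every animal: COL5A2 from −0.54 to −0.02 with a mean of −0.33 (SE 0.23), and COL5A3 from −0.55 to −0.13 with a mean of −0.32 (SE 0.22). COL27A1, chosen for mention after its values were seen, was the member of this group above 0, with 0.13 (SE 0.35).

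**Figure D2:**
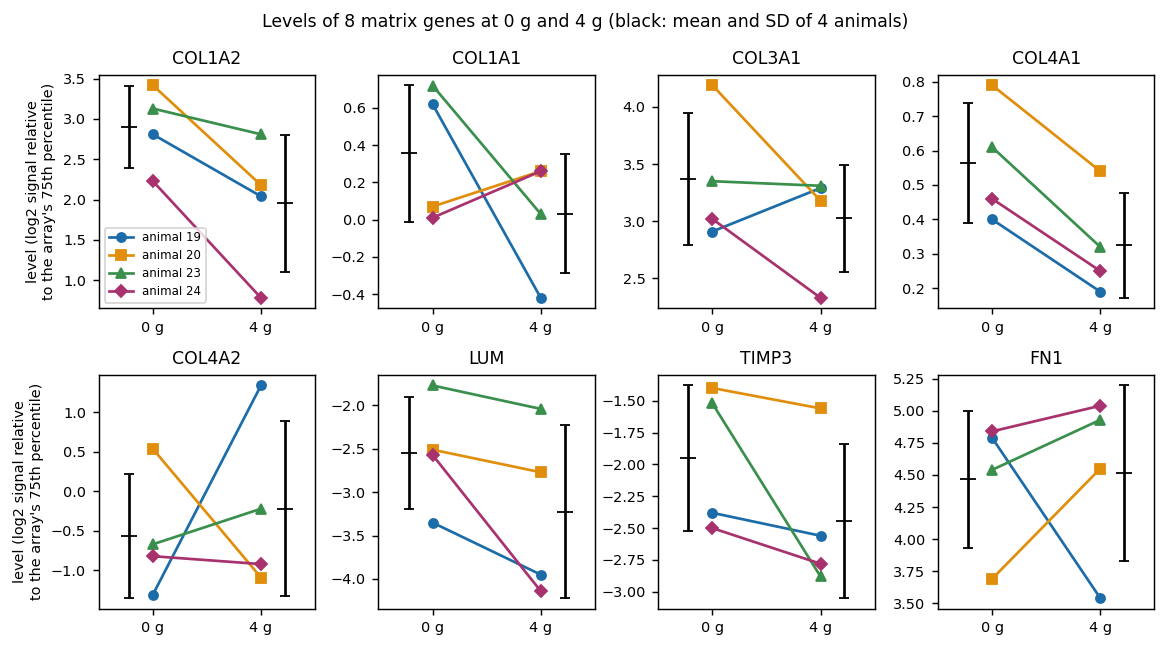
Levels of selected members on each array (log2 of signal minus the array's 75th percentile), with a line joining the 0 g and 4 g arrays of each animal, the mean and SD of 4 animals in black, and a scale of its own for each gene. The lines of COL1A2 slope downwards in all 4 animals with group means of 2.90 and 1.95, those of COL4A1 run parallel at −0.29 to −0.21, and those of COL4A2 and FN1 cross.

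The other collagens comprise the network, beaded-filament, transmembrane and fibril-associated types. Of 18 genes 9 were tested, with 6 differences below 0 and a median of −0.07. COL28A1, a chain related to type VI collagen, had the largest difference of this group at −0.71 (SE 0.33, limma unadjusted p 0.0711), but −0.12 with normexp background correction. It stood at −3.83, −3.94, −4.36 and −4.62 at 0 g and at −3.96, −3.96, −5.68 and −5.99 at 4 g. Its difference came from the arrays of animals 23 and 24, with −1.32 and −1.37, while animals 19 and 20 gave −0.13 and −0.02. COL13A1, a transmembrane collagen of cell adhesion sites, had a like pattern, with −0.64 and −1.14 in animals 23 and 24, −0.04 and −0.16 in animals 19 and 20, and a mean of −0.50 (SE 0.27), or −0.32 with normexp, which is then the larger of the 2.

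COL12A1 and COL14A1, which decorate the surface of collagen fibrils, differed by −0.35 (SE 0.31) and −0.06 (SE 0.25), and COL10A1, best known from growth-plate cartilage, by −0.17 (SE 0.27). COL6A1 encodes a chain of the beaded microfibrils of type VI collagen. At 0 g it stood at 3.26, 4.43, 3.11 and 3.11, and at 4 g at 3.41, 3.67, 3.84 and 3.15. The mean difference was 0.04 (SE 0.30). The dim 0 g array of animal 20 held the highest value of COL6A1, and also that of its partner chain COL6A2 (−1.32 against −3.07 to −1.99 on the other arrays), a gene chosen for mention after its values were seen.

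Basement membrane genes were the most evenly divided of the structural genes. Of 16 genes 14 were tested, 7 differences were below 0 and 7 above, and the median was 0.02. COL4A1 and COL4A2 encode the 2 chains that make up the common form of type IV collagen, the sheet of basement membranes, and their probes did not go together. COL4A1 stood at 0.40, 0.79, 0.61 and 0.46 at 0 g and at 0.19, 0.54, 0.32 and 0.25 at 4 g. The 4 animals differed by −0.21, −0.25, −0.29 and −0.21, the narrowest spread among the 8 members with lower levels in every animal, with a mean of −0.24 (SE 0.21, interval −0.75 to 0.27). The SE is larger than that spread alone would give, because limma moderates each probe's variance towards that of all probes.

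COL4A2 stood at −1.31, 0.54, −0.67 and −0.82 at 0 g and at 1.34, −1.09, −0.22 and −0.92 at 4 g. Its 2 highest arrays were the 2 dim ones, so that animal 19 differed by 2.65 and animal 20 by −1.63. The mean was 0.34 (SE 0.64).

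Among the laminins, the cross-shaped proteins of basement membranes, LAMB3 differed by 0.29 (SE 0.26), LAMA3 by −0.30 (SE 0.36), LAMC1 by 0.12 (SE 0.23) and LAMB1 by −0.03 (SE 0.22). LAMB1 kept within 1.26 to 1.83 over all 8 arrays. LAMA3 stood at −0.93, −1.36, 0.52 and 0.16 at 0 g and at −0.77, −0.74, −0.32 and −1.00 at 4 g, so its sign was positive in animals 19 and 20 and negative in the arrays of 23 and 24. COL4A5, a type IV collagen chain of specialised basement membranes, differed by −0.21 (SE 0.22). COL18A1, whose C-terminal fragment is endostatin, ranged from −1.96 in animal 19 to 1.04 in animal 24, with a mean of 0.12 (SE 0.53).

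Proteoglycans and adhesive glycoproteins had 8 of 9 genes tested, 7 differences below 0 and the median of −0.35. LUM stood at −3.35, −2.51, −1.77 and −2.57 at 0 g and at −3.95, −2.77, −2.04 and −4.14 at 4 g. Every animal had its lower value at 4 g, by −0.60, −0.26, −0.27 and −1.57, and the groups overlapped widely. The mean difference was −0.67 (SE 0.30, interval −1.39 to 0.05, limma unadjusted p 0.0626). It was −0.43 in animals 19 and 20 alone and −0.20 with normexp background correction.

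Decorin (DCN), a close relative of lumican that also binds collagen fibrils, lay within 2.21 to 3.17 on all arrays and differed by −0.17 (SE 0.23). Biglycan (BGN) differed by −0.40 (SE 0.45), with animals 20 and 23 lower at 4 g by −1.31 and −1.45 and animal 24 higher by 0.96. SPARC, a collagen-binding protein secreted by mesenchymal cells, stood at 0.02, −0.55, 0.25 and −0.12 at 0 g and at −1.44, −0.19, −0.12 and −0.71 at 4 g. Its difference of −0.52 (SE 0.33) was lower in 3 of 4 animals and rested most on the dim 4 g array of animal 19, being −0.20 without that animal.

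Fibronectin (FN1), an adhesive glycoprotein of plasma and matrix, stood at 4.79, 3.69, 4.54 and 4.84 at 0 g and at 3.54, 4.55, 4.93 and 5.04 at 4 g. Its 2 lowest arrays were the 2 dim ones, which gave differences of −1.25 in animal 19 and 0.86 in animal 20 and a mean of 0.05 (SE 0.38). The thrombospondins, matricellular glycoproteins, gave −0.31 (SE 0.29) for THBS1, −0.02 (SE 0.28) for THBS2 and −0.46 (SE 0.37) for THBS3. THBS1 was above background on only 4 arrays, 2 at each dose. Its value came mainly from the dim 4 g array of animal 19, at −7.03 against −5.87 to −5.02 on the other arrays.

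Elastic fibre and microfibril genes were all 5 tested and all 5 differences were below 0, between −0.44 and −0.03 with a median of −0.17. Fibrillin 1 (FBN1), the main protein of microfibrils, stood at −4.25, −4.30, −2.73 and −3.49 at 0 g and at −4.08, −4.0, −3.87 and −4.58 at 4 g. Animals 19 and 20 had slightly higher values at 4 g and the arrays of animals 23 and 24 lower ones, by −1.14 and −1.09, with a mean of −0.44 (SE 0.34). The fibulins, which bind elastic fibres and basement membranes, gave −0.43 (SE 0.28) for FBLN2 (−0.06 with normexp), −0.17 (SE 0.24) for FBLN1 and −0.17 (SE 0.24) for FBLN5.

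Of the 18 MMP genes 9 were tested, with 6 differences below 0 and a median of −0.17. MMP2, a gelatinase made by mesenchymal cells, stood at −0.02, 0.61, 0.06 and −0.25 at 0 g and at −0.43, −0.15, 0.09 and −0.79 at 4 g. It was lower at 4 g in 3 of 4 animals, with a mean of −0.42 (SE 0.24, interval −1.00 to 0.16). MMP14, the membrane-bound protease that activates MMP2, differed by −0.17 (SE 0.33).

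MMP25, a membrane-anchored protease known from leukocytes, had the largest MMP difference at −0.86 (SE 0.64), and it rested on 1 array. It stood at 4.39 on the 0 g array of animal 23 and between 0.85 and 1.66 on the other 7, and without animal 23 the difference was −0.01. The array at 4.39 is the one that carried the pancreatic acinar markers, whose part in this value was not tested. MMP7, matrilysin, an epithelial protease, stood at −1.14, −0.57, −0.82 and −1.06 at 0 g and at −2.04, 0.38, −1.78 and −2.17 at 4 g. It was lower by −1.11 to −0.90 in 3 animals and higher by 0.95 in animal 20, with a mean of −0.50 (SE 0.39).

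MMP15, another membrane-type protease, gave 0.47 (SE 0.32), and MMP11, stromelysin 3, gave 0.22 (SE 0.41). MMP15 owed most of its value to the dim 4 g array of animal 19, at −3.31 against −6.01 to −4.67 elsewhere. The other 9 MMPs were above background on no array, among them the gelatinase MMP9, the collagenases MMP1 and MMP13, the stromelysin MMP3 and the macrophage elastase MMP12.

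The ADAMTS proteases, secreted enzymes that cut proteoglycans and procollagens, had 8 of 17 genes tested, split into 4 below and 4 above 0 with a median of −0.03. ADAMTS1, a cleaver of versican and aggrecan, stood at 2.42, 2.67, 2.07 and 2.82 at 0 g and at 2.80, 2.97, 2.86 and 2.40 at 4 g. It was higher at 4 g in 3 of 4 animals and differed by 0.26 (SE 0.27). ADAMTS5, the main aggrecan-cutting enzyme of cartilage, gave −0.13 (SE 0.21), ADAMTS16 −0.07 (SE 0.28) and ADAMTS19 −0.17 (SE 0.35).

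The TIMPs bind MMPs 1 to 1 and block their active site. All 3 that were tested had differences below 0, with a median of −0.39, and TIMP4 was above background on no array. TIMP3, the form bound to matrix, stood at −2.38, −1.40, −1.52 and −2.50 at 0 g and at −2.56, −1.56, −2.88 and −2.78 at 4 g. It was lower at 4 g in each animal, by −0.18, −0.16, −1.36 and −0.29, and the mean of −0.50 (SE 0.29) became −0.21 without animal 23. TIMP2 gave −0.39 (SE 0.25), its 4 values at 4 g keeping within 1.38 to 1.57 while those at 0 g ran from 1.52 to 2.16. TIMP1, which in liver is made by stellate cells and by hepatocytes, gave −0.27 (SE 0.30), with 2 animals in each direction.

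The lean towards lower values was unequal among animals. Within animal 23, 49 of 63 members (77.8%) were lower at 4 g beside 50.6% of all tested probes, and within animal 20, 42 (66.7%) beside 52.9%. Within animal 24 it was 32 (50.8%) beside 40.9%, and within animal 19 it was 29 (46%) beside 45.1%. The members' median difference was 0.15 in animal 19, −0.26 in animal 20, −0.28 in animal 23 and −0.07 in animal 24, beside 0.09, −0.05, −0.01 and 0.1 for all probes. In animal 19 the members' share lay within a percentage point of that of all probes.

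With animals 19 and 20 only, 43 of 63 members (68.3%) were lower at 4 g with a median of −0.11, beside 48.3% of all probes. With the arrays of animals 23 and 24 only, 42 (66.7%) were lower with a median of −0.21, beside 45.9%. Leaving out animal 23 gave 38 of 63 (60.3%) and a median of −0.06, beside 41.4% of all probes. Leaving out the 0 g array of animal 23 alone gave 42 and −0.10, beside 46% of all probes. Leaving out both dim arrays gave 42 and −0.10, beside 46.6%. With animals 19 and 20 only, FBN1, LAMA3 and THBS2 turned to differences above 0 and FN1, COL6A1 and COL18A1 to differences below 0.

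**Figure D3:**
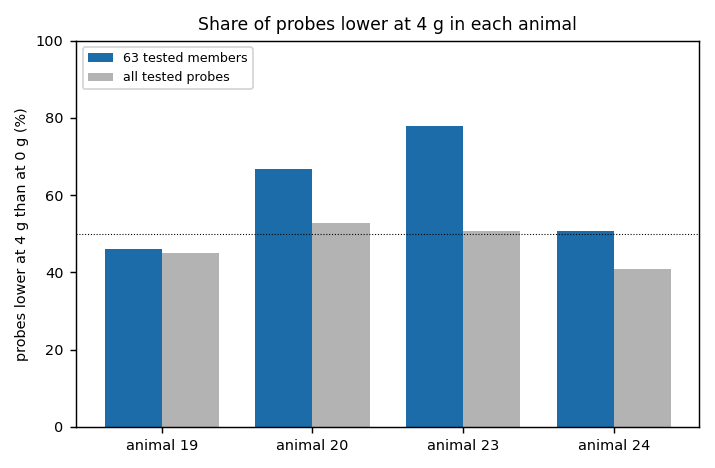
Share of probes with a lower level at 4 g within each animal, in percent, for the 63 tested members and for all tested probes. The members exceed all probes most in animal 23 (77.8% against 50.6%), less in animals 20 and 24, and by under a percentage point in animal 19 (46% against 45.1%).

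A split between the dim arrays and the rest was common over all genes, the members included. Both dim arrays stood above the other 6 for 13 members (20.6%), among them COL4A2, COL6A2, COL27A1, MMP14, THBS3, ADAMTS16 and ADAMTS19, beside 2670 of all tested probes (24.3%). They stood below the other 6 for 4 members (6.35%), FN1, MMP11, MMP19 and LAMA4, beside 2163 probes (19.7%). COL6A2, COL27A1, MMP19 and LAMA4 were chosen for mention after their values were seen. As 1 dim array is a 4 g array and the other a 0 g array, such probes had opposite signs in animals 19 and 20. For COL4A2 and FN1 the split also held with quantile normalization and with normexp, but for MMP19, COL6A2 and COL27A1 normexp removed it. With normexp 2 members stood above and 2 below, beside 8.82% and 9.42% of all probes.

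**Figure D4:**
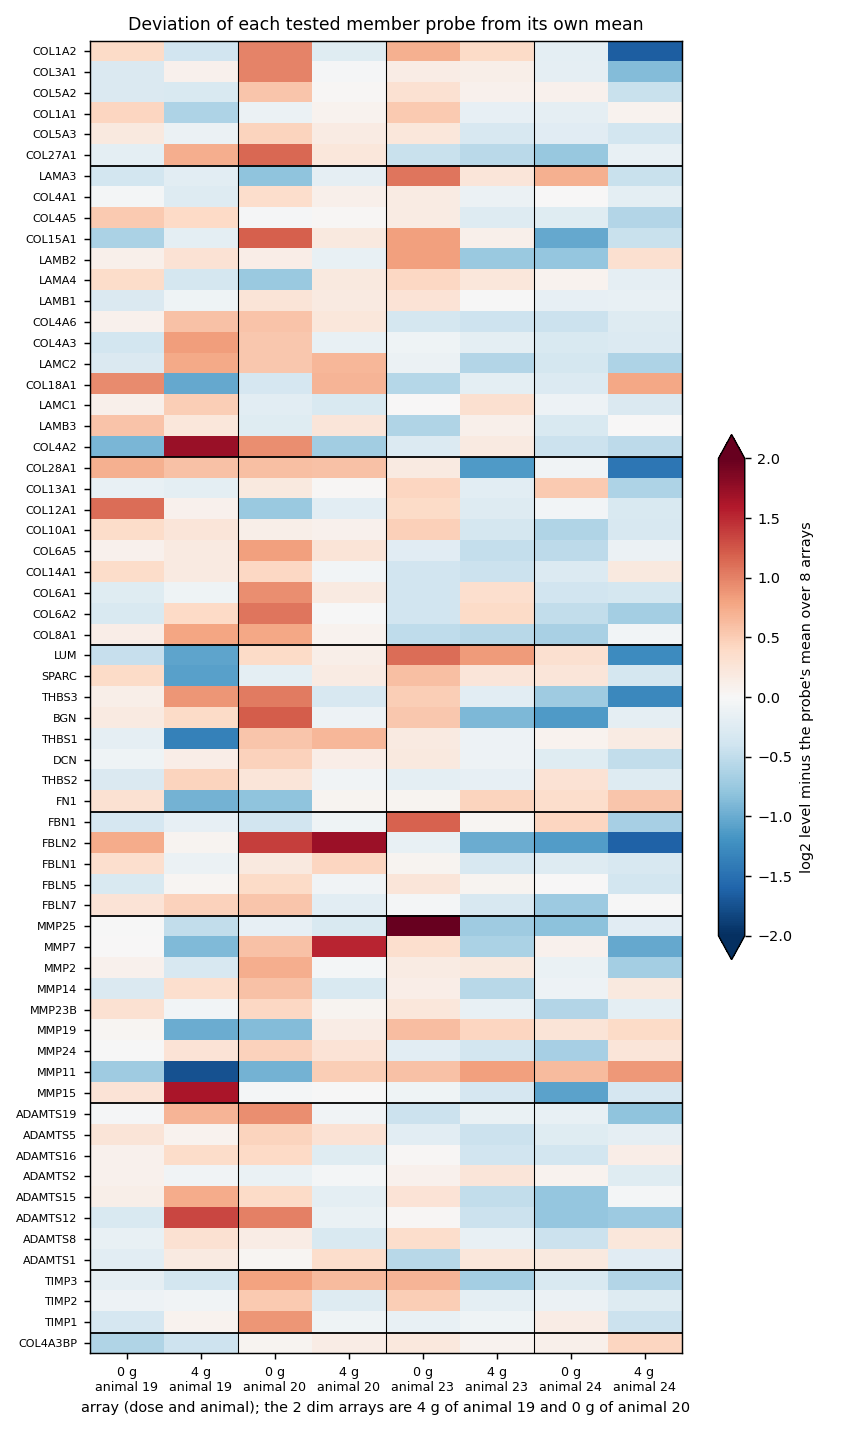
Deviation of each tested member probe from its own mean over the 8 arrays (log2 units), as a heat map with 1 column per array, red above and blue below the mean, and rows ordered by role. COL4A2 is high and FN1 low on both dim arrays (4 g of animal 19 and 0 g of animal 20), COL1A2 is lowest on the 4 g array of animal 24, and FBLN2 is high in animal 20 and low in animal 24.

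Differences between animals were tested in the same limma fit. At an adjusted p under 0.05, 0 of 63 members and 0 of all tested probes (0%) were found. At an unadjusted p under 0.05 there were 5 members (FBLN2, LUM, COL1A2, MMP11 and COL28A1) and 298 probes (2.71%). FBLN2, fibulin 2, had the smallest of the members' p-values, 0.00113 unadjusted and 0.985 adjusted in that limma F-test. It stood at 0.35 and −0.33 in animal 19, at 1.00 and 1.32 in animal 20, at −0.53 and −1.38 in animal 23 and at −1.51 and −2.0 in animal 24, the 0 g value first. The 4 pairs did not overlap, which holds only as far as the labels of animals 23 and 24 do.

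Animals 19 and 20 lay in slide row 1 and animals 23 and 24 in row 2, so animal pair and row cannot be told apart. Row 1 stood wholly above row 2 for 8 members, among them FBLN2, ADAMTS5, COL28A1 and MMP15, beside 637 probes (5.8%). It stood wholly below for MMP11 and MMP19, beside 407 probes (3.71%). ADAMTS5 ran from −1.01 to −0.64 in row 1 and from −1.52 to −1.26 in row 2. MMP11 ran from −4.53 to −2.30 in row 1 and from −2.20 to −1.92 in row 2.

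Probes seen on 1 array alone were over all genes mostly seen on the array with the acinar transcripts. Of 13 members well above background on a single array, 8 were so on the 0 g array of animal 23 (61.5%), as were 671 of 943 such probes over all genes (71.2%). LAMA1, the laminin alpha 1 chain of early basement membranes, stood at −2.48 there and at −8.32 to −6.88 elsewhere, and the protease ADAMTS18 at −4.50 there and at −8.34 to −6.87 elsewhere. Another 3 members, or 23.1%, were above background on the 0 g array of animal 19 alone, where 10.2% of such probes over all genes were. COL2A1, the collagen of cartilage, was among these 3 at −3.76, against −8.37 to −6.91 on the other arrays. THBS4, a thrombospondin of tendon and muscle chosen for mention after its values were seen, stood at −2.42 on the 0 g array of animal 19 and at −3.95 on that of animal 23, and at −6.77 or lower on the other 6. MMP9 gave no such array, with −8.19 to −6.56 throughout and no array above background.

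**Figure D5:**
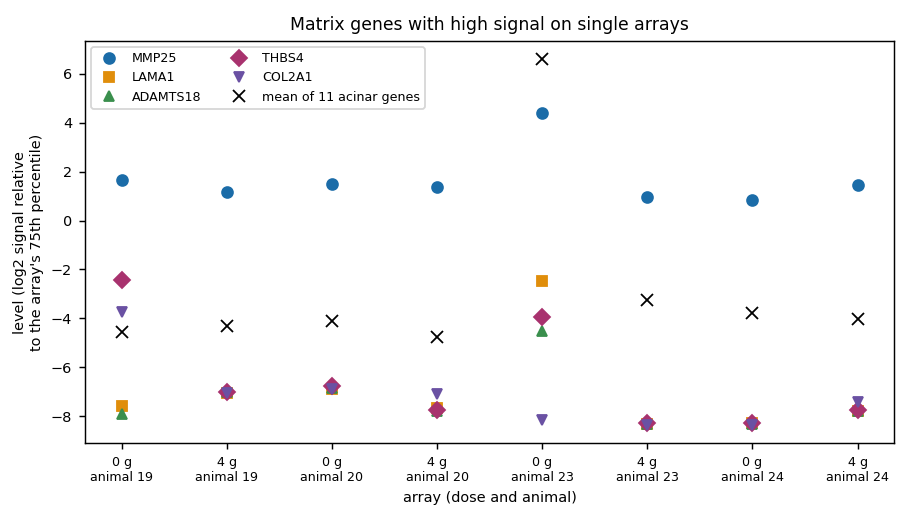
Levels of members with 1 or 2 arrays far above the rest (log2 of signal minus the array's 75th percentile) on each of the 8 arrays, with crosses for the mean of 11 acinar genes. LAMA1 and ADAMTS18 peak on the 0 g array of animal 23 at −2.48 and −4.50, COL2A1 on that of animal 19 at −3.76, and MMP25 on the 0 g array of animal 23 at 4.39.

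The rest of the matrix pathway was described through 4 lists. Of 20 tested genes of collagen processing and crosslinking, 12 were lower at 4 g with a median of −0.07. They include lysyl oxidase (LOX), the crosslinking enzyme, at −0.80 (limma unadjusted p 0.0242), and the collagen chaperone FKBP10 at −0.54. Of 18 tested genes of the TGF-beta pathway, the main inducer of collagen genes in stellate cells, 13 were lower and 5 higher with a median of −0.21. LTBP2 (−0.62), BAMBI (−0.58) and the receptor TGFBR1 (−0.57) had the smallest limma unadjusted p of that list, none under 0.05. BAMBI and TGFBR1 were each above background on only 4 arrays, of which 1 was at 4 g. Of 13 tested plasminogen system and other matrix protease genes 8 were lower and 5 higher, with a median of −0.02. SERPINE2, a serine protease inhibitor, gave −1.03 (SE 0.23, limma unadjusted p 0.00365), and FAP gave −0.79 (limma unadjusted p 0.0428). Both were lower at 4 g in 4 of 4 animals. For SERPINE2 the 0 g arrays all stood above the 4 g arrays, as for 0.255% of all tested probes. Of 22 other proteoglycan and matrix glycoprotein genes 14 were lower with a median of −0.15. Osteopontin (SPP1) at 1.34 and tenascin C (TNC) at 0.81 stood above 0, with limma unadjusted p of 0.026 and 0.022. Both were higher at 4 g in 4 of 4 animals. In animals 19, 20, 23 and 24 SPP1 differed by 0.62, 0.05, 2.60 and 2.08, and TNC by 0.44, 0.37, 1.07 and 1.35. No gene of these lists passed the adjusted threshold by limma, with adjusted p of 1 for those named.

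Markers of the cells that make matrix, and of other liver cells, were read on the same arrays. Of 15 tested stellate cell and fibroblast markers 9 had differences below 0 and 6 above, the median being −0.12, and none of the 15 was without signal on all arrays. DES was at −1.12, TAGLN at −1.03 and ACTA2 at −0.65, while PDGFRB was at 0.47, LRAT at 0.19, RGS5 at 0.19 and CYGB at 0.07. DES and TAGLN were lower in 4 of 4 animals, with limma unadjusted p of 0.0043 and 0.00631. They were the 2 of 15 under 0.05, beside 1.09% of all tested probes, and neither passed the adjusted threshold. PDGFRB was above background on only 4 arrays and differed by 0.80, −0.82, −0.78 and 2.68 in animals 19, 20, 23 and 24. The summed linear level of the 15 markers ran from 31.9 to 65.9 at 0 g and from 21.3 to 34.4 at 4 g. ACTA2 alone made up 64.5% to 85.5% of that sum. Without ACTA2 the sums were 8.63 to 9.57 and 7.56 to 10.2. Of 8 smooth muscle and pericyte markers 6 were lower, and CNN1 (−1.61) and CSPG4 (−1.12) were so in 4 of 4 animals. Their limma unadjusted p were 0.00706 and 0.00286, the 2 of 8 under 0.05, and neither passed the adjusted threshold. CNN1 was above background on only 5 arrays. Sums over the 8 markers were 17.3 to 34.1 at 0 g and 24.5 to 32.6 at 4 g, at least 97.4% of them from MYLK. Of 12 endothelial markers 12 had a mean difference below 0, beside 44.9% of all tested probes. Their median was −0.19, with sums of 11.7 to 13.2 and 10.5 to 12.9. Within animals 19, 20, 23 and 24 the markers lower at 4 g were 10, 5, 11 and 5 of the 12. No endothelial marker had a limma unadjusted p under 0.05. Of 14 tested hepatocyte markers 3 were lower and 11 higher, with sums of 839 to 1130 and 865 to 1020. The part of these markers in the matrix values was not tested, and in whole tissue fewer cells of a type and less RNA per cell cannot be told apart.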

How the data were processed

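Per the file headers, spot intensity values were made with Agilent Feature Extraction 11.0.1.1 as background-subtracted, detrended processed signals, whereas the submitters' processing notes name version 9.5. The authors' deposited series table holds log2 values of the same arrays centred on the 75th percentile. Probe positions in the files are on UMD 3.1. From the 15646 features of each array, 536 control features were left out and 15008 probes remained. Outlier flags removed 48 spots (none a member), no spot was saturated, and spots of 1 probe were averaged. RefSeq names came by accession for 68 members and by symbol for 29.

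Levels are log2 processed signal less the 75th percentile of the array. The 10985 probes that stood well above background on 4 or more arrays were fitted with limma 3.58.1 in R 4.3.3 (data.table version 1.17.8; lmFit and eBayes, 2-sided, animal as a block, Benjamini-Hochberg adjustment at 0.05), and the code was tested on simulated data. Between 64.4% and 80.4% of probes were above background on an array, and the number of arrays limits the precision. The animal block follows the labels, which name the animal. Deviations from the group means correlated within animals 19, 20, 23 and 24 at −0.19, −0.18, 0.21 and 0.13. Over all tested probes the pairs of animals 23 and 24 were thus more alike than those of 19 and 20. That is the reverse of what the 20 kept 2-level probes gave. Animals 19 and 20 each hold a dim array, at opposite doses, while animals 23 and 24 do not. Both dim arrays stood above the other 6 for 24.3% of tested probes and below them for 19.7%. Such probes were kept in these correlations, which therefore cannot show which pairs are sound, and that was not settled.

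The members and lists were chosen with earlier results of these data known. Genes were named by rule: per role up to 4 by the smallest dose p, a set of well-known matrix genes whatever their value, up to 6 by the smallest p between animals, members with 1 array over 2 log2 units above the rest, and up to 3 per list of other matrix genes. Alternatives were other scalings, filters, variance models and subsets of arrays. The 2 g group was not analysed here.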

Additional observations from a re-analysis of the deposited data

Results flagged for a closer look

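Each named member was screened for a sample far from the other 3 of its dose, by the gap to the nearest value over the range of the group against Dixon's 95% critical value. Of 108 groups 5 stood out, about as many as chance gives, which is about 1 in 20. COL3A1, a fibrillar collagen, stood at 2.33 on the 4 g array of animal 24, with 3.18 to 3.31 on the others at that dose. COL6A1 and COL6A2, partner chains of type VI collagen, both stood out on the dim 0 g array of animal 20, at 4.43 against 3.11 to 3.26 and at −1.32 against −2.88 to −2.69. MMP11 stood at −4.53 on the dim 4 g array of animal 19, against −2.30 to −1.92. MMP7 stood at 0.38 on the 4 g array of animal 20, against −2.17 to −1.78.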

How the results depend on the processing

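Under each of the 17 alternatives run, 0 members passed the adjusted threshold between doses by limma, and between animals 0 members under each alternative that kept the animals in the fit. The members' median lay between −0.21 and −0.06 in all of them, and leaving out 1 animal at a time gave −0.21 to −0.06 too. Of all probes, 120 had an unadjusted p under 0.05, and this count moved to 17 with normexp, 186 with no filter, 404 without animal 19, 339 without animal 20, 58 without animal 23, 16 with animals 19 and 20 only, 451 with animals 23 and 24 only, 401 with array weights, 50 without the 0 g array of animal 23 and 307 without the 2 dim arrays. The last setting called 5 probes over all genes, none a member. The count of members moved from 1 to 4, 3, 1 and 0 without animals 19, 20, 23 and 24. Of the 4 without animal 19, 3 were lower at 4 g. The count moved to 5 with animals 23 and 24 only and to 5 with array weights, all 5 lower at 4 g in both settings. Without the 0 g array of animal 19 it was 2, of which 1 was lower, beside 176 of all probes. With no replicate block the median stayed at −0.17, all 48 named members kept their sign, 0 members and 103 probes had an unadjusted p under 0.05, and no call changed. The labels' pairing was the basis of the block. Fits with no block were used where an array was left out, as its pair was then broken. The replicate number is the animal's number.

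Small differences turned their sign in some settings, and the cause was not tested. With animals 19 and 20 only, COL18A1 was at −0.47, COL6A1 −0.31, COL6A2 −0.19, FN1 −0.19, FBN1 0.23, LAMA3 0.39, LAMB1 0.07, MMP7 0.02 and THBS2 0.21. With animals 23 and 24 only, ADAMTS16 was at 0.05 and COL14A1 at 0.20. Array weights gave COL14A1 0.02 and MMP19 0.02, normexp gave LAMC1 −0.01, MMP11 −0.07 and MMP15 −0.07, and quantile normalization gave ADAMTS16 0.01. Without the 0 g array of animal 19, COL14A1 was at 0.05, COL4A3BP −0.06, COL6A1 −0.03 and COL6A2 −0.04. Without the 0 g array of animal 23, COL18A1 was at −0.06, COL6A1 −0.08, COL6A2 −0.07, LAMA3 0, LAMB1 0.05 and MMP19 0.18. Without the dim arrays, LAMB1 was at 0.07, LAMC1 −0.08, MMP19 0.01 and THBS1 0.23. Leaving out 1 animal at a time gave ranges across 0 for COL27A1 (−0.14 to 0.48), COL4A2 (−0.43 to 1), COL6A2 (−0.19 to 0.43), MMP19 (−0.37 to 0.32), ADAMTS16 (−0.26 to 0.13), ADAMTS19 (−0.45 to 0.11), COL14A1 (−0.24 to 0.07), COL18A1 (−0.19 to 0.81), FN1 (−0.22 to 0.48), MMP11 (−0.19 to 0.63), MMP14 (−0.43 to 0.07), THBS2 (−0.28 to 0.15), COL10A1 (−0.33 to 0.04), COL6A1 (−0.19 to 0.31) and LAMB1 (−0.12 to 0.05).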

Other observations

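Markers of other cells that liver or its surroundings hold were read on the same scale. Of 7 Kupffer cell and macrophage markers 5 were lower at 4 g with a median of −0.12, and their summed linear level ran from 81.8 to 105 at 0 g and from 80.8 to 104 at 4 g. Of 7 bile duct markers 4 were lower with a median of −0.15 and sums of 26.3 to 45.9 and 22.1 to 40.6. Of 5 tested mesothelium and capsule markers 1 was lower and 4 higher, with a median of 0.23. Of 4 tested adipocyte markers 2 were lower and 2 higher. FABP4, a fatty acid binding protein of adipocytes that macrophages and endothelial cells also make, stood at −1.24, 1.17, 1.94 and −2.45 at 0 g in animals 19, 20, 23 and 24 and at −3.19, −1.41, −1.02 and −4.71 at 4 g. It was lower in 4 of 4 animals, with a difference of −2.44 and a limma adjusted p of 0.614, the smallest of all tested probes. ADIPOQ stood at −1.70 on the 0 g array of animal 23 and at −4.85 or lower elsewhere, and LEP and PLIN1 were above background on no array.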
